A study of Mus musculus with 13 samples.

Results

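The genes described here are 10 members of the Fbxw cluster on mouse chromosome 9, Fbxw13, Fbxw14, Fbxw15, Fbxw16, Fbxw18, Fbxw19, Fbxw20, Fbxw22, Fbxw24 and Fbxw28. They were taken by name, by matching the Ensembl identifiers of the count tables to mouse gene symbols, and all 10 were found among the 22442 genes of the Ribo-seq tables and the 21898 genes of the acRIP-seq tables. Ribo-seq counts the short RNA fragments shielded by ribosomes (footprints) on the coding sequence (CDS) of each gene, so a count reflects the amount of a gene's mRNA and the number of ribosomes on it jointly. There were 11 such libraries, each of about 100 oocytes: 3 of WT GV, 3 of Nat10-ZcKO GV, 2 of WT MII and 3 of Nat10-ZcKO MII oocytes. acRIP-seq was run on WT GV oocytes with 1 anti-ac4C and 1 anti-IgG library.

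GV oocytes are held in prophase of meiosis I with an intact germinal vesicle, and MII oocytes have matured to metaphase II. Per the study's methods, all mice were of the C57BL/6J background and the females were 21 days old when primed with PMSG for GV oocytes, or with PMSG and then hCG for ovulated MII oocytes. Nat10-ZcKO females were Nat10 lox/- with Zp3-Cre, so that Nat10, the gene of the RNA acetyltransferase that deposits ac4C, was deleted in the oocyte. Zp3-Cre is a transgene active in the growing oocyte and not in the surrounding granulosa cells. The design text of the deposit also names tamoxifen, given for 3 days, for the WT and mutant Ribo-seq samples, which the study's methods for these mice do not, and neither source gives the alleles of the WT mice. The study also describes mutant oocytes that stop before metaphase II, so the Nat10-ZcKO MII group may hold more than 1 meiotic stage. Nothing states that the replicates came from separate animals, so the p-values below measure the spread between these libraries only.

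F-box proteins are the substrate receptors of SCF ubiquitin ligases: the F-box binds SKP1, which joins it to the cullin CUL1, and a second domain picks the protein to be ubiquitinated. In the Fbxw family that second domain is made of WD40 repeats. The chromosome 9 array is a run of tandem copies of such genes that is known for expression in the oocyte, and the substrates of most of its products are not known.

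In GRCm38 the members lie at chr9:109179227-109702700, a span of 523474 bases, all on the minus strand. Fbxw21, Fbxw25, Fbxw26 and Fbxw27 belong to the same array of 14 protein-coding Fbxw genes (chr9:109139447-109790670) but not to the list. The array lies between Plxnb1 and Spink8 and also holds the pseudogene Fbxw23. Fbxw24 (ENSMUSG00000062275.7), which carried the most footprints, lies at chr9:109601116-109626057 and has 10 coding segments with 1398 coding bases. Fbxw19 (ENSMUSG00000074061.4) lies at chr9:109476654-109495875, Fbxw14 (ENSMUSG00000105589.4) at chr9:109270790-109287676 and Fbxw28 (ENSMUSG00000054087.11) at chr9:109322886-109339659. Antisense transcripts are annotated over one end of Fbxw15 and of Fbxw16, and since no source used here states whether counting used strand, reads of these pairs cannot be told apart.

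The first 60 coding bases show how alike the members are, and so how far a footprint can name its gene. They are printed 5′ to 3′ from the start codon, with the bases that differ from Fbxw24 in capitals.
Fbxw24: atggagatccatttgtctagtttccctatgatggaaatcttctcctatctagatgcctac
Fbxw19: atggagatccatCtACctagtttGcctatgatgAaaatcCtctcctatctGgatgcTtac
Fbxw16: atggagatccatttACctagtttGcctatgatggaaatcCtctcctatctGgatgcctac
Fbxw14: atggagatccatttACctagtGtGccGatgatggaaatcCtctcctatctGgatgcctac
Fbxw28: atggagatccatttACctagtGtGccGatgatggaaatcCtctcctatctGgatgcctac
Fbxw19 differed from Fbxw24 at 8 of these bases, Fbxw16 at 5, and Fbxw14 and Fbxw28 at 7 each, with the same letters in both. Over whole coding sequences the 45 pairs of members were 79.5% to 99.1% identical, with a median of 83.5%. The closest pair was Fbxw14 with Fbxw28, which differed at 13 of 1398 bases.

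The stretch in which Fbxw14 and Fbxw28 differed most, coding bases 794 to 853, is one of the few places where a footprint can separate them. Capitals mark the 3 bases that differ.
Fbxw14: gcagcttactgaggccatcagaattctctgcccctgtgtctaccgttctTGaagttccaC
Fbxw28: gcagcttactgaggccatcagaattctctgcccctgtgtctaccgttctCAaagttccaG
Of the 1371 positions at which a 28-base fragment of Fbxw14 can start, 198 (14.4%) gave a fragment found nowhere else in the genome or in the transcripts of other genes (GENCODE M21), and 1117 gave one shared with Fbxw28. For Fbxw28 the unique share was 17.7%. The other 8 members had unique fragments at 55.8% (Fbxw16) to 81.9% (Fbxw18) of their positions. Whether reads that fit several genes were dropped or divided is not given in the sources used here, so the split of footprints between Fbxw14 and Fbxw28 is uncertain.

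Promoters are shown because the members were detected together in the same libraries. RefSeq windows (GRCm38.p6) from 250 bases before to 50 after the start site were held for 8 of the 10 members. Their 28 pairs were 84.9% to 97.7% identical, with a median of 90.9%. Below are the windows of Fbxw24 (chr9:109626010-109626309), Fbxw19 (chr9:109495805-109496104) and Fbxw20 (chr9:109234705-109235004), all on the minus strand and written 5′ to 3′ on the gene's own strand. Capitals mark every CANNTG, the E-box read by basic helix-loop-helix factors such as the oocyte factor FIGLA.
Fbxw24: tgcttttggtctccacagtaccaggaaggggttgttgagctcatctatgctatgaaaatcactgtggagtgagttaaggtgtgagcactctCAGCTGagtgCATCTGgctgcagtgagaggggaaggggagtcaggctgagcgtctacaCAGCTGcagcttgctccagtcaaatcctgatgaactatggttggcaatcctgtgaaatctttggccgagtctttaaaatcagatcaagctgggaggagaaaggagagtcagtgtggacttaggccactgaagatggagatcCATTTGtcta
Fbxw19: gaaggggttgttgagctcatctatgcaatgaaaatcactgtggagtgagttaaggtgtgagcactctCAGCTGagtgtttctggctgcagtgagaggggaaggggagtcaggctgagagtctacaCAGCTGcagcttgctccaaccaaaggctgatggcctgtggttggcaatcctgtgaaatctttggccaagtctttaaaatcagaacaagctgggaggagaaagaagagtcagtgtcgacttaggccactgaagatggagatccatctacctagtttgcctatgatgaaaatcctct
Fbxw20: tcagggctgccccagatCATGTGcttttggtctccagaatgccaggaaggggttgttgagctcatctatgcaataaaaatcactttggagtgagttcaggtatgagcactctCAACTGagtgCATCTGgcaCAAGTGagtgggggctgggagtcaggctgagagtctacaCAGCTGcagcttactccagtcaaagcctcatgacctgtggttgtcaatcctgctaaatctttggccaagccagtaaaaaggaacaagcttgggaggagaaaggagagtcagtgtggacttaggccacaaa
CANNTG, which reads alike on both strands, was present in all 8 windows, with 2 to 5 matches each, but also in 72.1% of 27025 mouse promoter windows. CAGCTG, a form of it that was searched after the sequences had been seen, was in 8 of 8 member windows and in 16.1% of all windows, and in 7 of the 8 it stood at a pair of sites. In Fbxw24 these sites began 159 and 101 bases before the start site, and Fbxw20 had 1, at 80 bases before. Both strands were searched for each motif. CACGTG, a form of CANNTG, was in 0 of 8 member windows and in 7.24% of all windows. The TATA box letters TATAAA were in 0 of 8 and 14.2%. The homeobox letters TAATTA were in 0 of 8 and 5.31%. The 8 windows are close copies of each other and so are not 8 separate observations.

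Library totals ran from 4815 counts in WT MII replicate 2 to 279464 in WT GV replicate 2, and 3 of the 11 libraries stood apart. Counts on 12 oocyte marker genes, among them Zp2, Zp3 and Padi6, made up at least 5.53% of each WT GV library and 10.8% of Nat10-ZcKO GV replicate 3, but 1.46% of Nat10-ZcKO GV replicate 2 and 0.0165% of Nat10-ZcKO GV replicate 1. In that last library the markers of adipocytes were at 1.61%, with 15 of 16 detected, and those of smooth muscle at 0.496%, and Zp1, Zp2 and Gdf9 were at 0 counts. Adipocyte markers were at 0.377% in Nat10-ZcKO GV replicate 2, at 0.0209% in replicate 3 and at no more than 0.0447% in WT GV. Smooth muscle markers were at 0.0697% to 0.120% in the other GV libraries. The MII libraries held 1.79% to 3.06% oocyte marker counts except WT MII replicate 2, with 0.104%. Nat10 itself had 22 counts over the 3 WT GV libraries, 10 over the Nat10-ZcKO GV, 6 over the WT MII and 11 over the Nat10-ZcKO MII libraries, too few to check the deletion. In WT MII it was at 7.42 CPM in replicate 1 and at 1038 CPM in replicate 2, the library of 4815 counts. The Nat10 counts are on the whole CDS and not on the deleted exons alone.

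In WT GV oocytes the 10 members together took 948, 2235 and 684 footprint counts, 0.652%, 0.800% and 0.711% of the libraries. Each member was detected in each of the 3. In footprints per coding length (TPM, scaled to the library), Fbxw24 stood at 2718 ± 435 (SD, n = 3), which was rank 32 of 22359 genes with a coding length. Fbxw19 followed at 961 ± 31.3, Fbxw18 at 807 ± 142 and Fbxw16 at 462 ± 29.7 TPM. The remaining 6 lay between 299.5 (Fbxw22) and 218 (Fbxw20) TPM, and 97.3% of genes were below the lowest of them.

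The levels of Fbxw24 and Fbxw19 did not overlap between the 3 libraries, nor did those of Fbxw18 and Fbxw16, or of Fbxw16 and Fbxw22. Fbxw19 was above Fbxw18 within each of the 3 libraries, although the values overlapped between libraries. The neighbours from Fbxw22 down overlapped and kept their order in 1 or 2 of the 3 libraries, so they are not ranked here. Each member's whole count was also divided by its number of positions with a unique 28-base fragment in place of coding length. Fbxw14 then moved from rank 7 to rank 2 and Fbxw28 from rank 6 to rank 3, while Fbxw24 stayed first. The counts were not limited to those positions, so if shared reads were counted this scale overstates Fbxw14 and Fbxw28. The places of these 2 genes thus depend on the length used.

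**Figure D1:**
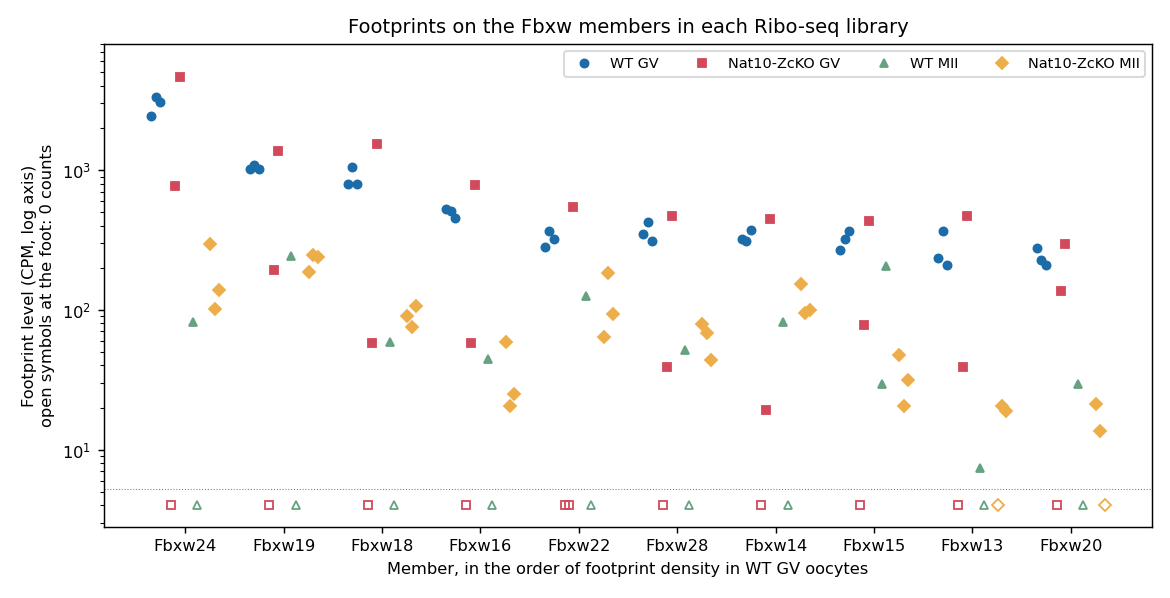
Footprint level of each member in each Ribo-seq library, in counts scaled to a library of 1000000 (CPM) on a log axis, with 1 symbol per library and color and shape by group. Open symbols at the foot are libraries with 0 counts. The WT GV libraries lie above WT MII replicate 1 and the Nat10-ZcKO MII libraries for each member, while the 3 Nat10-ZcKO GV libraries spread from 0 to the highest values seen.

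The first comparison asked how footprints on the cluster changed from GV to MII in WT oocytes. Fbxw24 was at 2440, 3328 and 3058 CPM in the WT GV libraries and at 81.6 CPM in WT MII replicate 1, from 11 counts, and it had 0 counts in WT MII replicate 2. This is 36.1 times less in replicate 1 than in the WT GV mean, with a counting interval of 20.7 to 74.6. All GV values were above both MII values. In edgeR's quasi-likelihood test the log2 change was -5.15 ± 2.17 (SE) with a Benjamini-Hochberg adjusted p of 0.0667, and leaving out WT MII replicate 2 gave -5.07 ± 0.38 (adjusted p = 5.28e-08).

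Fbxw13 showed a like difference at a lower level, with 234, 365 and 208 CPM in WT GV against 7.42 CPM in WT MII replicate 1 and 0 counts in replicate 2. The value in replicate 1 is a single count, and the ratio of 36.3 has a counting interval of 7.14 to 1605. Its log2 change of -4.73 ± 1.35 passed the edgeR test over both MII libraries, at an adjusted p of 0.00779.

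Fbxw22 differed least. It was at 282, 369 and 322 CPM in WT GV and at 126 CPM, from 17 counts, in WT MII replicate 1, a ratio of 2.57 with a counting interval of 1.62 to 4.68. Fbxw19 had 1024, 1081 and 1019 CPM in WT GV and 245 CPM in WT MII replicate 1, a ratio of 4.26 (3.03 to 6.32). Fbxw14 and Fbxw28, the pair with shared reads, were 4.12 and 6.99 times lower, and Fbxw15, Fbxw16 and Fbxw18 were 10.7 to 14.8 times lower. Fbxw20 was at 275, 229 and 208 CPM in WT GV and at 29.7 CPM, from 4 counts, in WT MII replicate 1.

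Over both WT MII libraries 3 of the 10 members, Fbxw13, Fbxw16 and Fbxw20, were called lower by edgeR (log2 changes of -4.73, -3.23 and -2.67, adjusted p of 0.00779, 0.0476 and 0.0402), and none higher. With 0 counts in WT MII replicate 2, these 3 passed the filter on low counts through their WT GV levels. Of all 2045 genes tested, 11.5% were called lower, a share not limited to genes that entered in this way. All 10 members had both WT MII libraries under each WT GV library, which held for 52.2% of the genes tested. The members' median log2 change was -2.64, beside -0.44 for all genes. WT MII replicate 2 had 4815 counts in all and 1 count on the cluster (Fbxw15). TMM, the scaling used in the fits, gave it a factor of 11.8 over all 11 libraries, beside at most 1.61 in the others. The factors within single comparisons are not given here. At the unscaled depth of this library a count of 0 allows up to 623 CPM, above the WT GV mean of 7 of the 10 members. Without it, 10 of 10 members were called lower, at adjusted p of 0.015 or less, against 24.0% of 3264 genes, with a median log2 change of -3.10 beside -0.35 for all genes. That fit has 1 MII library, which is assumed to vary as the WT GV libraries do. Fbxw13, Fbxw15, Fbxw16, Fbxw18, Fbxw20 and Fbxw28 had 1 to 8 counts in that library and passed the filter through their WT GV levels. The share and the median of all genes in that fit are not limited to genes that entered in this way. They are therefore not a matched background for the members. With both MII libraries, leaving out WT GV replicate 1 gave 1 call and leaving out replicate 2 or 3 gave 0. The 3 calls also became 0 with at least 10 counts in all, with no filter, with all 11 libraries in 1 fit or with the replicate number as a block, 1 with DESeq2 size factors, 7 with DESeq2 and 8 with library size only. Per 100 counts on the oocyte markers WT MII replicate 1 had 3.27 counts on the members, below the 9.50 of the lowest WT GV library. The markers themselves differed between the stages, in both directions. From WT GV replicate 1 to WT MII replicate 1, Zp2 went from 1267 to 28 counts and Padi6 from 2818 to 123. H1foo went from 335 to 1487 and Mos from 3 to 173. Between stages this scale therefore depends on which markers it holds. WT MII replicate 2 had 1 count on the members and 5 on the markers, which gives 20 on that scale, too few counts to be read, and with it the log2 ratio of the group means was 0.13 on that scale against -3.90 in CPM. The footprint counts do not measure RNA apart from ribosomes, and the study's RNA-seq of GV and MII oocytes was not used here. From these counts less mRNA and less translation per mRNA cannot be told apart, nor can fewer cells of a type and less RNA per cell.

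In Nat10-ZcKO oocytes the same comparison depended on the GV libraries. Fbxw24 had 0, 774 and 4641 CPM in Nat10-ZcKO GV replicates 1, 2 and 3, and 298, 102 and 138 CPM in the Nat10-ZcKO MII libraries. The GV values thus lay on both sides of the MII values. The log2 change was -3.93 ± 1.52 with an edgeR adjusted p of 0.0871. Over all 6 libraries 0 of the 6 members that passed the filter on low counts (all but Fbxw13, Fbxw15, Fbxw16 and Fbxw20) were called by edgeR, with 2 at an unadjusted p under 0.05 and 1 by DESeq2, where edgeR called 6.02% of 2225 genes lower.

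Without Nat10-ZcKO GV replicates 1 and 2, the libraries low in oocyte markers, 10 of 10 members were called lower in Nat10-ZcKO MII, against 19.6% of 3741 genes. Their log2 changes ran from -5.49 (Fbxw13) to -2.23 (Fbxw14), with edgeR adjusted p of 8.25e-05 or less, and the median was -4.17 beside 0.11 for all genes. This fit has 1 GV library. Without replicate 1 alone 6 of 8 members tested were called lower (12.1% of all genes), and without replicate 3, the one rich in oocyte markers, 2 of 6 were called higher (16.4% of all genes). Among these calls, Fbxw13, Fbxw15 and Fbxw20 passed the filter only through their GV levels, and Fbxw14 and Fbxw22 only through their MII levels. The shares of all genes are not limited to genes that entered in this way. The call in this genotype therefore turned with the GV libraries used.

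**Figure D2:**
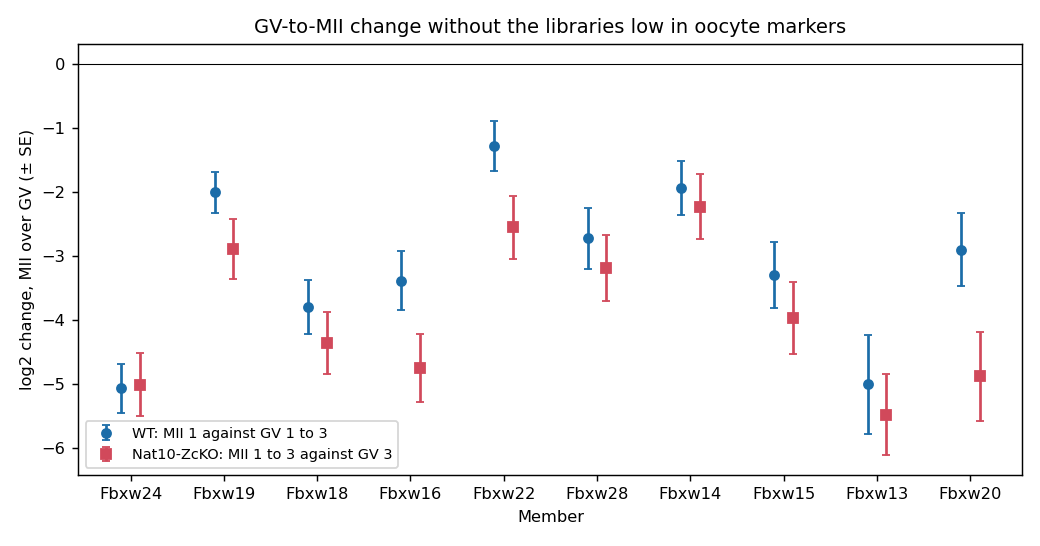
Change in footprints from GV to MII for each member on the log2 scale, with standard errors from edgeR, in WT without MII replicate 2 (circles) and in Nat10-ZcKO without GV replicates 1 and 2 (squares). All 20 values are below 0, from -1.29 for Fbxw22 in WT to -5.49 for Fbxw13 in Nat10-ZcKO.

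The makeup of the cluster differed between the stages. Among the 9 libraries with at least 50 counts on the cluster, Fbxw24 held 37.4% to 55.6% of the members' summed counts in the 5 GV libraries and 10.8% to 29.8% in the 4 MII libraries. Fbxw19 moved the other way, from 12.4% to 15.7% in GV to 18.6% to 32.4% in MII. Fbxw14 held 1.39% to 5.26% in GV and 10.8% to 15.4% in MII, and Fbxw22 0% to 4.93% in GV and 6.38% to 21.8% in MII. GV and MII libraries did not overlap for these 4 members, nor for Fbxw13 and Fbxw28, and they overlapped for Fbxw15, Fbxw16, Fbxw18 and Fbxw20. These shares are descriptive, rest on 102 to 188 counts in each MII library and were not tested. The GV extremes of 55.6%, 1.39% and 0% came from Nat10-ZcKO GV replicate 2, with 72 counts on the members and few on oocyte markers. Without it Fbxw24 held 37.4% to 43.0% in GV, Fbxw14 3.89% to 5.26% and Fbxw22 4.32% to 4.93%, and Fbxw16 no longer overlapped.

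**Figure D3:**
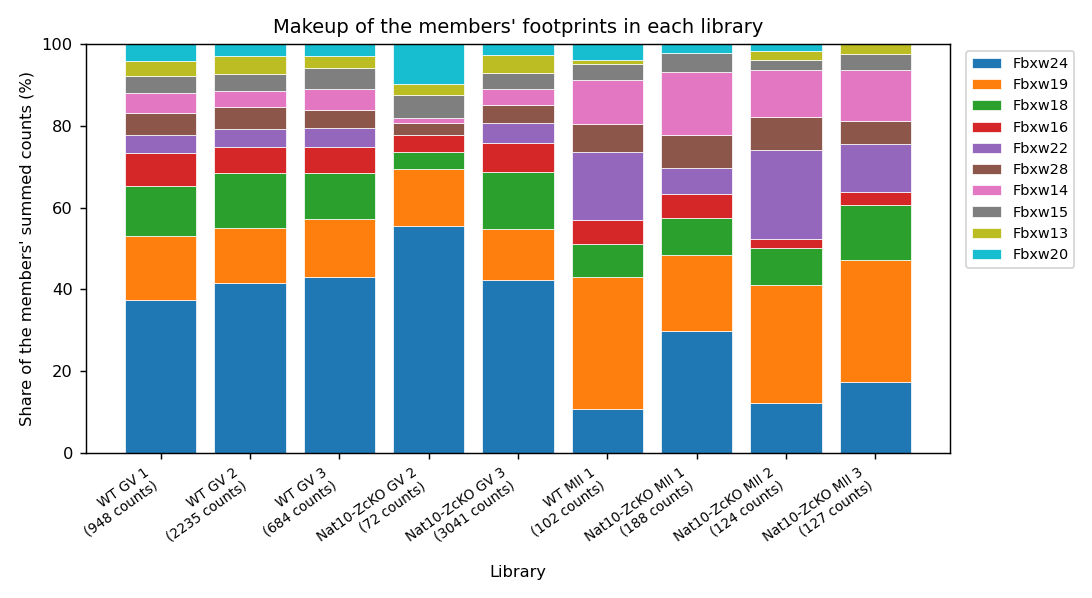
Share of the members' summed footprint counts taken by each member, in percent, in the 9 libraries with at least 50 such counts (the number is under each bar). The lowest segment, Fbxw24, is 37.4% to 55.6% of the bar in the 5 GV libraries and 10.8% to 29.8% in the 4 MII libraries.

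The next comparison asked whether Nat10-ZcKO changed footprints on the cluster in GV oocytes. The summed members held 0%, 0.139% and 1.10% of the Nat10-ZcKO GV libraries, from 0, 72 and 3041 counts, beside 0.652% to 0.800% in WT GV. Replicates 1 and 2 were below all WT GV libraries and replicate 3 was above them. A count of 0 in replicate 1 allows a share of up to 0.00708%. The log2 ratio of the group means of summed CPM was -0.81, and 0 of the 10 members were called by edgeR (adjusted p of 0.90 to 0.93), 0 at an unadjusted p under 0.05 and 0 by DESeq2. Of all 1765 genes edgeR called 0% in this comparison, with 85 at an unadjusted p under 0.05, and DESeq2 called 14 genes.

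In GV libraries the share of the cluster moved with the share of oocyte markers. Per 100 counts on the 12 oocyte marker genes there were 11.8, 10.7 and 9.50 counts on the members in WT GV, and 9.51 and 10.1 in Nat10-ZcKO GV replicates 2 and 3. On this scale both lay within the range of the WT GV libraries. Replicate 1, with 7 marker counts, gives no ratio that can be read, and the part of its adipocyte and granulosa or cumulus markers (1.61% and 1.24%) in the 0 counts of the members was not tested. Fbxw24 had 0 counts there and 40 and 1286 counts in replicates 2 and 3.

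**Figure D4:**
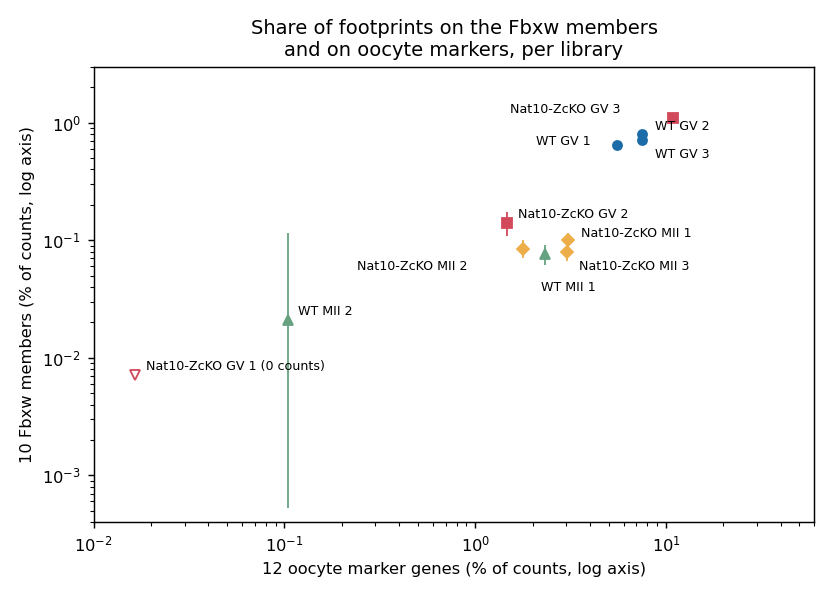
Share of each library's counts on the 10 members (vertical, percent, log axis, exact 95% intervals of counting) against the share on 12 oocyte marker genes (horizontal, percent, log axis). The GV libraries rich in oocyte markers lie at the upper right, at 0.652% to 1.10% on the members. The open triangle pointing down marks Nat10-ZcKO GV replicate 1, with 0 counts on the members, drawn at the 0.00708% that 3 counts would be.

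Nat10-ZcKO GV replicate 3 alone was above the WT GV mean for each member, by 1.25 (Fbxw20) to 1.76 times (Fbxw13). Against WT GV without the other mutant libraries, Fbxw18 was called higher by edgeR, with a log2 change of 0.99 ± 0.27 and an adjusted p of 0.0398, and Fbxw24, at 0.86 ± 0.25, had an adjusted p of 0.0515. So 1 of 10 members was called higher, against 0.980% of 3879 genes, in a fit with 1 mutant library. With replicates 1 and 2 and without replicate 3, 8 of 10 members were called lower (10.1% of 1858 genes). The members, with 0 counts in replicate 1, passed the filter of that fit through their WT GV levels. The share of all genes is not limited to genes that entered in this way. The direction of the genotype difference in GV oocytes was thus set by which mutant libraries entered.

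In MII oocytes the members were at 0.0756% of WT MII replicate 1, from 102 counts, and at 0.0845% and 0.0795% of Nat10-ZcKO MII replicates 2 and 3, from 124 and 127 counts. The exact 95% interval of the WT library was 0.0617% to 0.0918% and held both. Nat10-ZcKO MII replicate 1, with 188 of 187967 counts and an interval of 0.0862% to 0.115%, was higher, and its interval overlapped that of the WT library. WT MII replicate 2 gave 0.0208%, from 1 count. Fbxw24 was at 298, 102 and 138 CPM in the mutant libraries, all above the 81.6 CPM of WT MII replicate 1. Fbxw20 was at 21.3, 13.6 and 0 CPM, all below the 29.7 CPM of that library, from 4, 2 and 0 counts against 4.

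The log2 ratio of the MII group means was 0.87 over all 5 libraries and 0.22 without WT MII replicate 2. For Fbxw24 the log2 change was 1.18 ± 1.02 (edgeR adjusted p = 0.997). Of the 6 members that passed the filter, edgeR and DESeq2 called 0, and 0 had an unadjusted p under 0.05, where edgeR called 0.191% of 2097 genes. Without WT MII replicate 2, 0 of 6 members were called, against 0.205% of 2924 genes, and the members' log2 changes ran from -0.23 to 1.02. Without WT MII replicate 1, when the library of 4815 counts stood for WT, 4 of 7 members were called higher, against 47.3% of 2809 genes.

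The change from GV to MII was also compared between genotypes with an interaction term over all 11 libraries. The 10 members had edgeR adjusted p of 0.81 to 0.97, and 0 were called, 0 at an unadjusted p under 0.05 and 0 by DESeq2, beside 0.906% of 3863 genes. The median log2 difference of the members was 1.60 over all libraries, beside 0.96 for all genes, and -0.60 without the 3 libraries low in oocyte markers, an alternative chosen after seeing the data. For Fbxw24 the difference was 2.46 ± 2.34. A difference between genotypes in this stage change was not detectable in these libraries.

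The other genes of the array that were tested also fell from WT GV to WT MII. Fbxw21 was at 997, 1220 and 1519 CPM in WT GV and 37.1 CPM in WT MII replicate 1, with 0 counts in replicate 2, and its log2 change was -4.85 (edgeR adjusted p = 0.0487). Fbxw26 and Fbxw27 were called lower as well (log2 changes of -4.34 and -4.90, edgeR adjusted p of 0.00783 and 0.00825). Without WT MII replicate 2 the log2 changes of these 3 genes were -4.94, -4.61 and -5.17. Fbxw25 had 3, 7 and 1 counts in the WT GV libraries and did not pass the filter. Lower levels in WT MII were not limited to the array. Fbxw8, on chromosome 5, was at 1059, 1181 and 790 CPM in WT GV and at 89 CPM in WT MII replicate 1. Its log2 change was -3.453 over both WT MII libraries and -3.433 without replicate 2. For Btrc, an Fbxw-type gene on chromosome 19, these values were -2.099 and -2.321. Over both WT MII libraries edgeR called neither gene, where it called 3 of the 10 members. Without replicate 2 the log2 changes of both genes lay within the range of the members, -5.07 to -1.29.

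Of 10 genes for the SCF core, the partners of F-box proteins, and its regulators, 5 were tested between WT GV and WT MII and 1 was called lower, beside 11.5% of all genes. It was Ube2m, which encodes a NEDD8-conjugating enzyme that activates cullins (log2 change of -3.10, edgeR adjusted p = 0.0457). Skp1a, the adaptor that binds the F-box, had a log2 change of -3.22 (adjusted p = 0.178) and Cul1, the scaffold, 1.82 (adjusted p = 0.223), and neither was called. Without WT MII replicate 2, edgeR called Ube2m (log2 change of -3.38), Skp1a (-2.91) and Cand1 (-2.42), which encodes an exchange factor of cullins, lower and Cul1 (2.27) higher, where 782 of 3264 genes were called lower and 682 higher. Of 6 F-box genes of the oocyte cell cycle 2 were tested over both WT MII libraries and 0 called. Fbxo43, whose product EMI2 holds the egg at metaphase II, was at 41.2, 28.6 and 10.4 CPM in WT GV and at 193 CPM, from 26 counts, in WT MII replicate 1, with 0 counts in replicate 2. It did not pass the filter over both WT MII libraries. Without replicate 2, where it passed only through the 1 MII library left, its log2 change was 2.79. In Nat10-ZcKO it had 0, 0 and 2 counts in GV and 39, 29 and 19 counts in MII. It was the 1 gene of the list tested there and was called higher (log2 change of 4.52, edgeR adjusted p = 0.0145), beside 10.2% of 2225 genes. At these GV counts it passed the filter only through its MII levels, so a call could hardly be other than higher. Without Nat10-ZcKO GV replicates 1 and 2 its log2 change was 4.17, beside 19.0% of 3741 genes called higher. Between genotypes 0 genes of either list were called over all libraries. Without Nat10-ZcKO GV replicates 1 and 2, which leaves 1 mutant library, log2 changes in GV went both ways. They were 1.38 for Nedd8, the ubiquitin-like modifier of cullins, 0.80 for Skp1a and -1.38 for Cul1.

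Across 10 libraries, without WT MII replicate 2, the non-member genes whose level was most like that of the summed cluster were Oas1e (Pearson r of log2(CPM + 1) = 0.996), Zar1 (0.996), Nlrp2 (0.993), Eif4e1b (0.991) and Polr2j (0.990), of 1086 genes with at least 200 counts. Oas1e belongs to the oligoadenylate synthetase family, Zar1 encodes an RNA-binding protein of the oocyte, Nlrp2 a subcortical maternal protein, Eif4e1b a cap-binding protein of the germ line and Polr2j a subunit of RNA polymerase II. Each was at 0 counts in Nat10-ZcKO GV replicate 1, as the cluster was, and with WT MII replicate 2 included r fell to between 0.863 and 0.880. The likeness rested in part on Nat10-ZcKO GV replicate 1: without it, over 9 libraries, r was 0.945 (Eif4e1b) to 0.981 (Oas1e), and these 5 genes held ranks 10 to 55 of 1047 rather than the first places. Zar1, for example, was at 3595, 4179 and 4150 CPM in WT GV, at 0, 851 and 3590 CPM in Nat10-ZcKO GV, and at 289 to 579 CPM in the MII libraries other than WT MII replicate 2. Fbxw21 was at rank 89 (r = 0.905) and Btrc, an Fbxw-type gene outside the array, had r = 0.450. The points share library depth and oocyte content, and the values describe these libraries only.

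The last comparison asked whether mRNA of the members was enriched by the antibody to ac4C in WT GV oocytes. acRIP-seq counts fragments of mRNA bound by the antibody, and the anti-IgG library is its background. With 1 library each there is no replicate check and no test, and intervals cover counting error only. Gene counts were 970997 with anti-ac4C and 116232 with IgG. The members together took 4414 and 945 of these, 0.455% and 0.813%. The ratio of CPM was 0.559, with an exact 95% interval of 0.521 to 0.600.

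In this pair of libraries no member had a ratio above 1 at this scaling. Fbxw24 had 1271 CPM (1234 counts) with anti-ac4C and 1747 CPM (203 counts) with IgG, a ratio of 0.728 (0.627 to 0.848). The lowest ratios were those of the pair with shared reads, Fbxw28 at 0.286 (0.239 to 0.343) and Fbxw14 at 0.343 (0.274 to 0.433). The highest was that of Fbxw15, at 0.979 (0.766 to 1.27), from 589 and 72 counts.

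The interval lay below 1 for 6 of 10 members and above 1 for 0, beside 19.2% below and 32.9% above among 4680 genes with at least 50 counts. The members' median ratio was 0.619, beside 1.27 for those genes, and 0 members passed a ratio of 2, beside 32.8% of those genes. In unscaled counts, where the anti-ac4C library is the deeper, all 10 members (2.39 to 8.18) and 97.7% of those genes passed it. The intervals of Fbxw13, Fbxw15, Fbxw16 and Fbxw20 held 1. Within the array, Fbxw21 stood at 2.02 (1.42 to 2.99), above 1, and Fbxw27 at 0.465 (0.340 to 0.645). Scaling moved the sum: it was 0.623 with TMM factors, 0.879 with the 12 oocyte markers as the reference and 4.67 in unscaled counts.

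**Figure D5:**
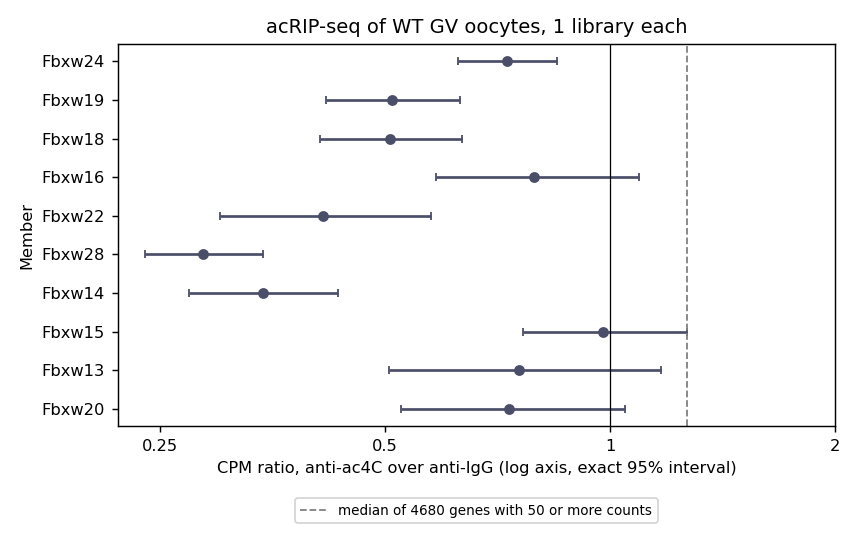
Ratio of CPM in the anti-ac4C library to CPM in the anti-IgG library for each member (log axis), with exact 95% intervals of counting, 1 library each. All 10 points lie left of 1 (solid line) and of 1.27 (dashed line), the median of 4680 genes with at least 50 counts.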

How the data were processed

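Ribo-seq counts on the CDS came from 11 oocyte libraries and acRIP-seq counts on genes from 2, grouped by genotype, stage and antibody as labelled. The authors deposited raw counts per gene, 1 table per library, not normalized. The submitters' processing notes name cutadapt, STAR, HTSeq and mm10, without versions. Handling of multi-mapped and duplicate reads is not given in the sources used here, and reads from near-identical members may have been dropped or divided. Rows that name no gene (no feature was 46.7% with IgG and 17.1% with anti-ac4C) stayed out.

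Members, lists and tests were chosen with earlier results of these data known. Named genes were the members, Nat10, the other Fbxw genes with Btrc, 10 SCF genes, 6 F-box genes of the oocyte cell cycle, and the 5 genes most like the summed cluster. Counts were tested with edgeR 4.0.16 in R 4.3.3 (filterByExpr, TMM, glmQLFit, glmQLFTest, Benjamini-Hochberg, adjusted p under 0.05) within the groups compared, and DESeq2 1.42.0 was an alternative. CPM, TPM, intervals (exact, 95%) and the limit of a zero (3 counts) were computed in Python 3.11.15 with scipy 1.17.1. Gene symbols were found for 22399 of 22442 identifiers. TPM used GENCODE M21 coding lengths on GRCm38, and 83 genes had no length. The fits were tested on simulated data. Other filters, scalings, the replicate block, joint fits and omitted libraries were tried. The omissions for genes outside the members, for likeness and for the shares of members were chosen after seeing the data.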

Additional observations from a re-analysis of the deposited data

How the results depend on the processing

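Without replicates in turn, members called ranged from 0 to 8 for Nat10-ZcKO against WT in GV (8 without Nat10-ZcKO GV replicate 3), 0 to 4 in MII (4 without WT MII replicate 1), 0 to 10 for WT MII against WT GV (10 without either WT MII library, 0 or 1 without a WT GV library), 0 to 6 for Nat10-ZcKO MII against GV (6 lower without GV replicate 1, 2 higher without GV replicate 3) and 0 to 2 for the interaction (2 without Nat10-ZcKO GV replicate 3). Where 1 library was left in a group, it is assumed to vary like the others. Members could also pass the filter through the group where they were high, so these counts are not set against shares of all genes. Without both Nat10-ZcKO GV libraries low in oocyte markers, 1 such GV library was left. The members' median log2 changes were then 0.74 in GV and -4.17 between the Nat10-ZcKO stages.

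For WT MII against WT GV the 3 calls became 7 with DESeq2, 8 with library size only, 1 with DESeq2 size factors in edgeR, and 0 with at least 10 counts in all, with no filter on low counts, or with all 11 libraries in 1 fit. Each member stayed negative in this comparison in all settings tried. For Nat10-ZcKO MII against GV the 0 calls became 1 with DESeq2, 3 with no filter and 2 in the joint fit. Whether the replicate numbers pair the libraries was not settled. Deviations from group means correlated at -0.07 to 0.19 for same-numbered libraries (15 pairs) and at -0.19 to 0.16 for the others (30 pairs). Deviations within so small a group are tied to each other, so these values cannot exclude pairing. With the replicate block 0 members were called in WT MII against WT GV, and no other count of members changed. Counts over all genes moved by over 1.5 times in 47 of 76 settings, for WT MII against WT GV from 439 to between 0 and 1902, for Nat10-ZcKO MII against GV from 360 to between 0 and 1445, in GV from 0 to up to 385, in MII from 4 to between 0 and 1451 and for the interaction from 35 to between 0 and 948. The causes were not tested.

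The median log2 change of the members reversed in GV to 0.031 without Nat10-ZcKO GV replicate 1 (range -3.95 to 0.031 without single replicates) and 0.74 without both low libraries, between the Nat10-ZcKO stages to 1.84 without GV replicate 3 (range -3.06 to 1.84), and for the interaction to -0.040 without both and -0.60 without all 3. The log2 ratio of summed CPM for MII Nat10-ZcKO against WT, 0.87, was -1.72 per oocyte marker count, where WT MII replicate 2 has 5 such counts, and 0.22 to 2.08 without single replicates. For WT MII against WT GV it was 0.13 per oocyte marker count, again with those 5 counts, and -5.12 to -3.25 without single replicates. For Nat10-ZcKO MII against GV, -2.23, it was 1.82 with geometric means, which a library at 0 lowers, and -2.81 to 0.34 without single replicates. In GV it was -3.37 to -0.22 without single replicates. The ac4C/IgG ratio was 4.67 unscaled, 0.623 with TMM factors, 0.879 per oocyte marker count and 0.513 without Fbxw24. In the order of members by footprint density, 2 of 10 kept their place with the number of unique 28-mers in place of coding length, and 2 with that of unique 30-mers.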
